A study of Mus musculus with 20 samples.

Results

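The heat shock and endoplasmic reticulum (ER) chaperone genes are a list of 34 genes of the protein-folding machinery: 11 of the cytosolic heat shock system, 3 of mitochondrial chaperones and 20 of the ER. They were chosen by name, and each gene was represented by the probe set with the highest mean among those that the array annotation assigns to a single gene symbol. Of the 34 genes, 30 had such a probe set (8 cytosolic, 2 mitochondrial and 20 ER genes), out of 17097 genes on the array. All of these 30 passed a filter on dim genes that kept 12944 genes. Hspa1a, Hsp90ab1, Hsf1 and Hspd1 had no single-symbol probe set and are not analysed here.

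The signal was measured in SV40-immortalized fibroblasts from mouse embryos in which both Ampkα1 and Ampkα2, the catalytic subunits of the AMP-activated protein kinase (AMPK), are knocked out. AICAR is an adenosine analog that cells convert to the AMP mimic ZMP, a direct activator of AMPK, so the design asks which transcripts respond to it where that kinase is missing. The 20 arrays comprise 3 of control cells at 0 h without AICAR and, for cells in 1 mM AICAR, 3 at each of 1, 2, 4, 12 and 24 h but 2 at 8 h. Every group carries the double knockout and the immortalization, and no untreated cells were collected at the later times, so hours in culture and hours in AICAR cannot be told apart. No label says that replicates are separate cultures, so each p-value measures only the spread between these samples, which may be technical.

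The median log2 signal of an array ranged from 5.159 to 5.318. AICAR 1 h replicate 3 stood apart at the bright end, with a 99th percentile of 11.76 where the other arrays had 11.97 to 12.06, and its values of Hspa5 and Hspa8 were the lowest of the 20 arrays. None of the 30 genes was called at 1 h with or without it by limma. The nonspecific control probe sets, which stand for background, had a median of 3.71 and a 95th percentile of 5.08. Of 12 fibroblast markers, 9 had a control mean above that percentile, and Col1a2 (4.23), Thy1 (4.94) and Lum (4.17) did not. The mean of that list was 7.72 to 7.92 over the arrays. Of 6 macrophage markers 1 was above it, of 6 epithelial markers 3, of 4 endothelial markers 1 and of 4 muscle markers 4. The signal of Prkaa1, the Ampkα1 gene, was 7.92 to 8.36 over the arrays and that of Prkaa2, the Ampkα2 gene, 5.42 to 6.98. The annotation does not say whether these probe sets lie in the deleted exons, and with no undeleted cells here they check nothing about the labels.

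Heat shock proteins bind unfolded polypeptides. In the cytosol, HSP70 proteins cycle on and off their clients under the control of J-domain partners and nucleotide exchange factors, and the transcription factor HSF1 raises their genes when unfolded protein accumulates. The ER has its own HSP70 (BiP, encoded by Hspa5), its own HSP90 (Hsp90b1), lectin chaperones and disulfide isomerases. When ER folding is overloaded, the unfolded protein response raises these genes through ATF6 and the spliced form of XBP1, together with genes of ER-associated degradation (ERAD), which extracts misfolded proteins and hands them to the proteasome.

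The promoter elements through which these programmes are known to act mark some of the genes that a classical response would move together. Several are printed here from RefSeq windows on the GRCm38.p6 build. The 250 bases before the start were searched on both strands, and 27 of the 34 genes had a window. Hspa9 was left out of the search, so nothing can be said of its elements. The ER stress element, CCAAT and CCACG with 9 bases between them, was found in 8 of 18 ER genes with a window (Hspa5, Calr, Hsp90b1, Canx, Pdia6, Dnajc3, Creld2 and Syvn1) and in 0.113% of 32851 windows of this length. Its second form, ATTGG and CCACG with 1 base between them, was found in Herpud1 (0.0304% of all windows). The unfolded protein response element TGACGTGG was found in Sec24d (0.563% of all windows). The heat shock element searched had 3 units, GAA, TTC and GAA or their complement, with 2 bases between units. It was found in the window that the divergent genes Hspe1 and Hspd1 share (0.466% of all windows). Only exact matches were searched, so genes not listed, the cytosolic ones among them, cannot be said to lack an element. Of the genes of the first 3 sequences, Hspa5 and Canx were called at no time below and Syvn1 was called higher at 24 h. These 3 sequences carry the ER stress element, and the others carry the other elements. Each is read 5′ to 3′ on the gene's strand, and capitals mark the element. In Hspe1 they mark 2 overlapping matches, 1 on each strand.
Hspa5, chr2:34772005-34772063, plus strand: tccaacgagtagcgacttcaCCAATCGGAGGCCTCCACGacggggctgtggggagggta
Canx, chr11:50325780-50325838, minus strand: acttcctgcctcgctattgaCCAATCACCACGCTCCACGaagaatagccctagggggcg
Syvn1, chr19:6046512-6046570, plus strand: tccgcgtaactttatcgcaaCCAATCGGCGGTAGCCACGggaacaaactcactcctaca
Herpud1, chr8:94386357-94386407, plus strand: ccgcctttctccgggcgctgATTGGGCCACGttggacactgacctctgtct
Sec24d, chr3:123267450-123267495, plus strand: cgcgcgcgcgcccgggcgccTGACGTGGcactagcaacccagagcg
Hspe1, chr1:55088039-55088096, plus strand: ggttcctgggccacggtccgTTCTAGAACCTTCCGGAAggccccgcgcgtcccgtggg

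The chaperone genes neither rose nor fell as a block in AICAR. Differences are given as log2 signal minus the 0 h mean, and a gene was called where limma's adjusted p over all genes tested was under 0.05. Limma called 0 of the 30 at 1 h and again 0 at 2 h, with 1 and 2 of them at an unadjusted p under 0.05. Among all genes tested, 0.00773% were called higher and 0.471% lower at 1 h, and 0.471% higher and 0.997% lower at 2 h. Higher signal was called for 3 genes at 4 h (all genes: 5.18%), for 3 after 8 h (7.49%) and for 5 after 12 h (14.8%). None of the 30 was lower by limma at those times, where 1, 0 and 1 of them lay lower at an unadjusted p under 0.05 and 6.9%, 2.84% and 8.88% of all genes were called lower. Some alternatives did call members lower there: array weights called 5 at 4 h (Dnajc3, Hspb1, Pdia4, Sdf2l1 and Sel1l) and 2 at 12 h (Herpud1 and Pdia3), and the mean of all probe sets called 2 at 12 h (Hspa4, -0.28, and Hspa9, -0.18). Leaving out 1 array called Herpud1 lower at 12 h (-0.32 without AICAR 12 h replicate 2) and Pdia3 (-0.41 without AICAR 12 h replicate 3). The share of all genes called lower in these alternatives was not counted. After 24 h, 8 of the 30 were called higher, beside 25.8% of all genes, and 7 lower, beside 14.6%. The moderated F test over the 7 times called 19 of the 30 genes, where 48.4% of all genes were called, and the same 19 were called at 1 or more times. The 8 h count was 1 without control replicate 2, without control replicate 3 or without AICAR 8 h replicate 1, and the 4 h count was 1 without control replicate 3.

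**Figure D1:**
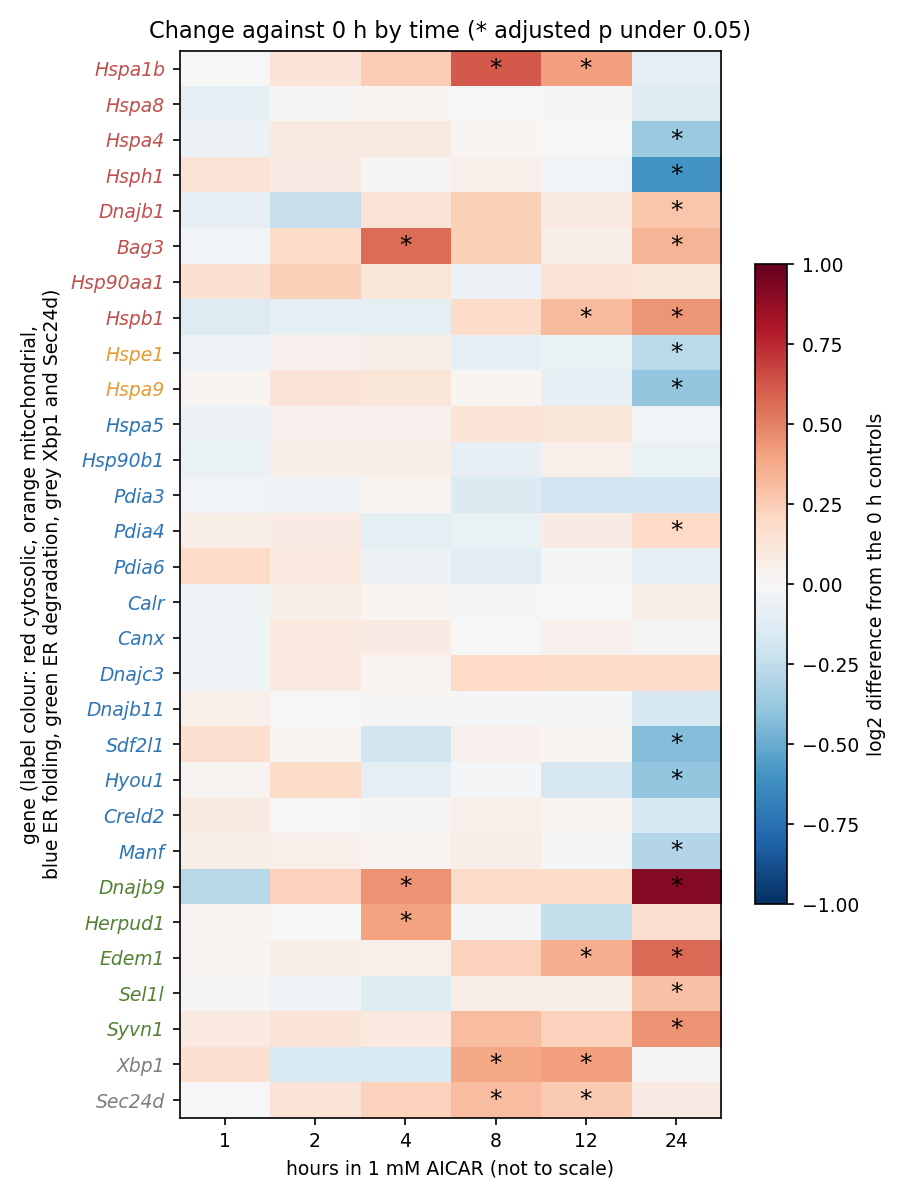
Log2 difference from the 0 h mean for each of the 30 genes (rows) at 6 times in AICAR (columns), with an asterisk where the adjusted p was under 0.05. No gene is marked at 1 or 2 h, marks to 12 h are all for higher signal, and at 24 h 8 are for higher and 7 for lower signal.

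The cytosolic heat shock genes moved at different times and in both directions. Hspa1b, an inducible HSP70 gene, rose in the middle of the course and was back near its control level by 24 h (-0.09, not called). Its signal was 10.91, 10.77 and 10.74 on the control arrays, 10.96, 10.81 and 10.66 at 1 h, and 10.92, 11.00 and 10.90 at 2 h. It was 10.86, 11.20 and 11.11 at 4 h and 11.43 and 11.41 at 8 h. It was 11.13, 11.34 and 11.19 at 12 h and 10.77, 10.72 and 10.68 at 24 h. The 8 h and 12 h arrays lay above every control array, and those of the other times overlapped them. The rise was 0.61 ± 0.10 (SE; 1.53-fold, adjusted p = 0.00106) at 8 h and 0.41 ± 0.09 (adjusted p = 0.00235) at 12 h. The fall from 12 h to 24 h was -0.50 ± 0.09 (adjusted p = 0.000641). Its other probe sets gave 0.59 and 0.56 at 8 h and 0.34 and 0.31 at 12 h, the last not called. At 24 h they gave -0.21 and -0.28, not called. Hspa1b and Hspa1a are near-identical copies, so these probe sets may read both.

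Bag3, a co-chaperone that links HSP70 to selective autophagy, peaked earlier. Its control arrays read 8.44, 8.68 and 8.30, and those at 1 h read 8.56, 8.43 and 8.35. At 2 h they read 8.77, 8.68 and 8.51 and at 4 h 9.05, 9.17 and 8.87. The 8 h arrays read 8.71 and 8.70, those of 12 h 8.61, 8.65 and 8.32, and those of 24 h 8.76, 8.84 and 8.83. All arrays at 4, 8 and 24 h were above the controls, while those at 1, 2 and 12 h overlapped them. Bag3 rose by 0.56 ± 0.11 (SE; 1.47-fold, adjusted p = 0.00201) at 4 h, fell by 0.50 ± 0.11 from 4 h to 12 h (adjusted p = 0.0017) and was called again at 24 h (0.34 ± 0.11, adjusted p = 0.017). With array weights the 4 h value was 0.29, the 24 h value 0.22 and the step from 4 h to 12 h -0.29. The 24 h call was lost without control replicate 1 (0.32), without control replicate 3 (0.25) and without AICAR 24 h replicate 2 (0.32).

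Hsph1, an HSP110 protein that exchanges nucleotide on HSP70, showed a single late step down. It read 11.11, 11.00 and 11.04 on the controls, 11.26, 11.21 and 11.07 at 1 h, 11.08, 11.19 and 11.11 at 2 h, and 11.09, 11.08 and 11.00 at 4 h. It read 11.13 and 11.08 at 8 h, 11.03, 11.02 and 11.02 at 12 h and 10.58, 10.44 and 10.34 at 24 h. The 24 h arrays were all below every control array, and each earlier group overlapped the controls. The fall was -0.60 ± 0.07 (SE; 1.51-fold, adjusted p = 1.72e-06) against 0 h and -0.57 ± 0.07 against 12 h (adjusted p = 1.68e-05). Hspa4, its relative in the HSP110 group, went from 11.68 ± 0.03 (SD, n = 3) at 0 h to 11.31 ± 0.04 at 24 h, a fall of -0.37 ± 0.07 (SE; adjusted p = 0.000174), -0.58 by the mean of its probe sets. From 12 h to 24 h it also fell by 0.37 (adjusted p = 0.000667).

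Hspb1, the small heat shock protein HSP27, rose late and stayed up. Its mean was 11.46 ± 0.06 (SD, n = 3) at 0 h, 11.36 ± 0.08 at 4 h, 11.64 ± 0.06 (n = 2) at 8 h, 11.78 ± 0.07 at 12 h and 11.91 ± 0.03 at 24 h. The difference from 0 h was 0.32 ± 0.07 (SE; adjusted p = 0.00448) at 12 h and 0.44 ± 0.07 (1.36-fold, adjusted p = 9.41e-05) at 24 h, and its arrays were all above the controls from 8 h on. Its difference between 12 h and 4 h was 0.41 ± 0.07 (adjusted p = 0.00042). The mean of its probe sets, 2 of which were dim, gave 0.29 at 24 h and 0.22 between 12 h and 4 h. Dnajb1, the HSP40 partner of HSP70, was 9.99 ± 0.10 at 0 h and 10.26 ± 0.15 at 24 h, 0.28 ± 0.10 higher (adjusted p = 0.0376). The mean of its probe sets gave 0.59 at 24 h and called it at 4, 8 and 12 h too (0.47, 0.55 and 0.40). The 24 h call was lost without control replicate 2 (0.30), control replicate 3 (0.22), AICAR 24 h replicate 1 (0.19) or AICAR 24 h replicate 2 (0.30), and also with median centring (0.30) or with the compared groups alone (0.28).

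Hspa8 and Hsp90aa1 were called at 0 of the 6 times by limma, with 0 of these differences at an unadjusted p under 0.05. Hspa8, the constitutive HSC70, read 13.05, 13.06 and 13.09 on the controls, 13.10, 13.07 and 12.76 at 1 h, 13.06, 13.05 and 13.13 at 2 h, and 13.05, 13.12 and 13.09 at 4 h. It read 13.03 and 13.11 at 8 h, 13.01, 13.10 and 13.11 at 12 h and 12.91, 12.95 and 12.95 at 24 h. These values lie near 13.5, the highest in the table. The 24 h arrays were all below the controls (-0.13, 95% interval -0.29 to 0.03). The mean of its 4 probe sets gave -0.53 at 24 h (limma, adjusted p = 0.00012), and the difference was also called with quantile normalization (-0.12), with array weights (-0.12) and without AICAR 1 h replicate 3 (-0.13). Hsp90aa1, the stress-inducible cytosolic HSP90, varied more between replicates. It read 11.66, 11.34 and 11.73 at 0 h, 11.59, 12.01 and 11.57 at 1 h, 11.76, 11.63 and 12.04 at 2 h, and 11.70, 11.67 and 11.71 at 4 h. It read 11.58 and 11.45 at 8 h, 11.80, 11.50 and 11.83 at 12 h and 11.55, 11.76 and 11.76 at 24 h. Every group overlapped the controls, and its 95% intervals over the 6 times ran from -0.37 to 0.52. With array weights it was called higher at 4 h and at 24 h (0.27 each).

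**Figure D2:**
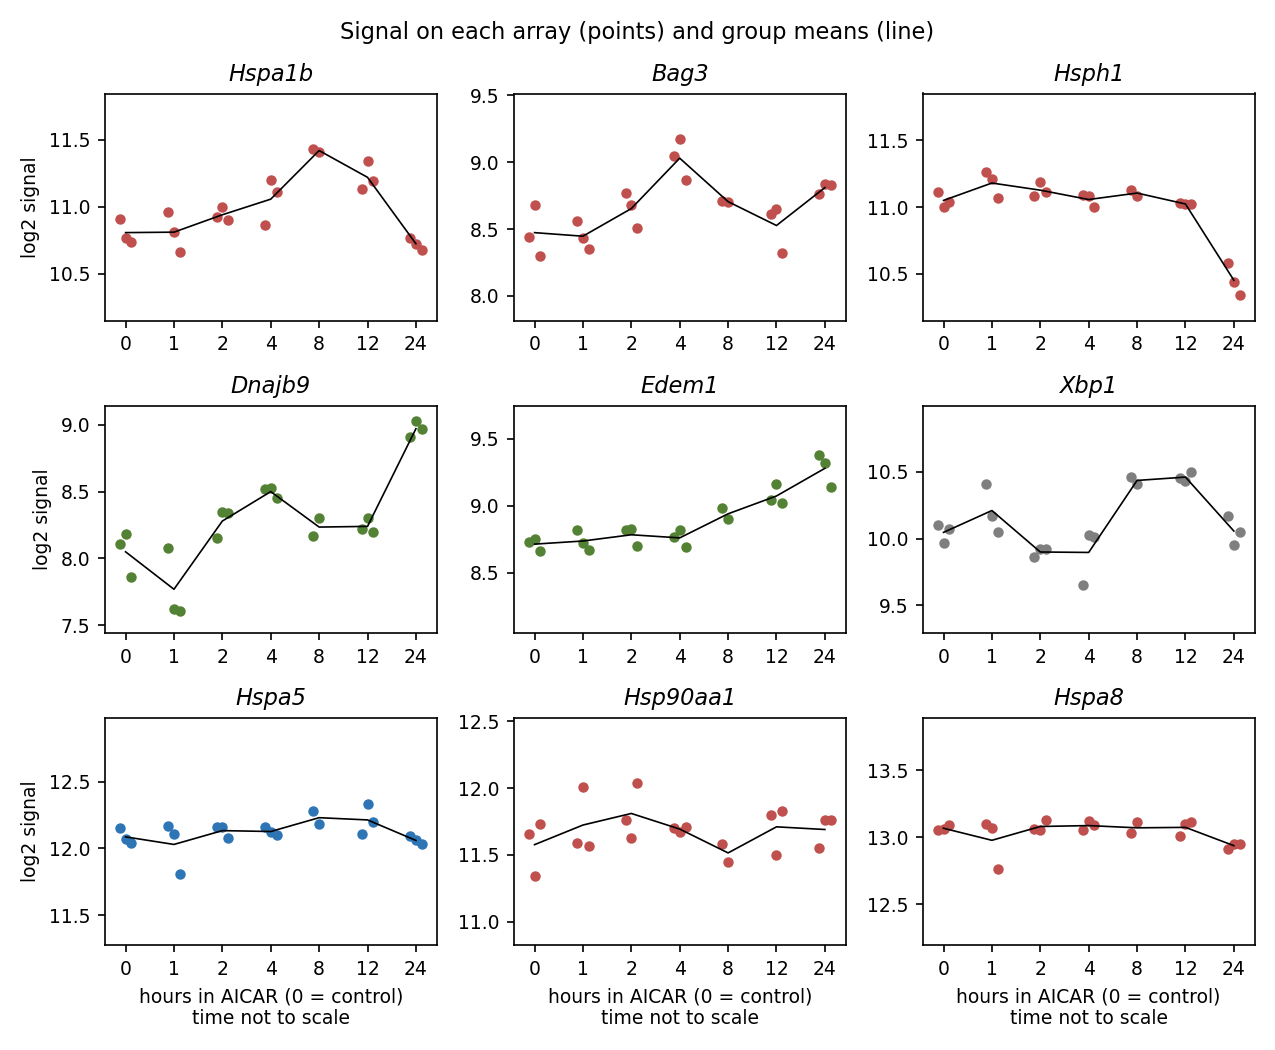
Log2 signal of 9 genes on each array (points) with group means (line) against hours in AICAR; every panel spans the same range of log2 units. Hspa1b peaks at 8 h, Bag3 at 4 h, Dnajb9 and Edem1 are highest at 24 h, Hsph1 drops at 24 h, Xbp1 is high at 8 and 12 h, and Hspa5, Hsp90aa1 and Hspa8 are not called at any time in the fit of all 20 arrays.

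Both mitochondrial genes measured fell, at 24 h. Hspa9, the mitochondrial HSP70 mortalin, was 11.44 ± 0.10 (SD, n = 3) on the controls. It was 11.56 ± 0.02 at 4 h, 11.36 ± 0.06 at 12 h and 11.05 ± 0.06 at 24 h. Its 24 h difference was -0.39 ± 0.08 (SE; 1.31-fold, adjusted p = 0.00059), with all arrays below the controls, and the step from 12 h was -0.31 ± 0.08 (adjusted p = 0.0102). Its other probe sets gave -0.61 and -0.59 at 24 h. Hspe1, the HSP10 lid of the HSP60 chamber, was 12.30 ± 0.04 at 0 h and 12.03 ± 0.06 at 24 h, a difference of -0.27 ± 0.08 (adjusted p = 0.00885), and its second probe set gave -0.40. Hspe1 shares the divergent window with the heat shock element printed above.

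Of 13 ER chaperones and folding factors, 0 were called at 1, 2, 4, 8 or 12 h by limma. Among all genes tested, 0.479%, 1.47%, 12.1%, 10.3% and 23.7% were called at these times. At 24 h 1 of the 13 was higher (all genes: 25.8%) and 3 were lower (14.6%), with a median difference of -0.10 (all genes tested: 0.01). Hspa5 encodes BiP, the standard marker of the unfolded protein response. It read 12.15, 12.07 and 12.04 on the controls, 12.17, 12.11 and 11.81 at 1 h, 12.16, 12.16 and 12.08 at 2 h, and 12.16, 12.12 and 12.10 at 4 h. It read 12.28 and 12.18 at 8 h, 12.11, 12.33 and 12.20 at 12 h and 12.09, 12.06 and 12.03 at 24 h. The 8 h arrays were both above every control array (0.14, 95% interval -0.05 to 0.34), and each other group overlapped the controls. At 24 h the interval was -0.20 to 0.14. Its second probe set was called at 0 times too, with differences of 0.04 at 8 h and -0.06 at 24 h.

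The falls at 24 h were in Sdf2l1, Hyou1 and Manf. Sdf2l1, a partner of BiP and its J-domain proteins, went from 9.02 ± 0.10 (SD, n = 3) to 8.60 ± 0.21, a difference of -0.43 ± 0.09 (SE; 1.34-fold, adjusted p = 0.000551). It was -0.44 against 12 h, and that step was not called with the 2 groups fitted alone (adjusted p = 0.0526). Hyou1, the ER's HSP110, went from 9.14 ± 0.08 to 8.75 ± 0.15 (-0.39 ± 0.11, adjusted p = 0.00923; -0.32, not called, without AICAR 24 h replicate 2). Manf, a secreted ER stress protein that binds BiP, went from 10.89 ± 0.09 to 10.60 ± 0.06 (-0.29 ± 0.09, adjusted p = 0.0115; -0.24, not called, without control replicate 1). All 24 h arrays of these genes were below all control arrays. Pdia4, a disulfide isomerase, was called higher (9.12 ± 0.07 to 9.32 ± 0.08, 0.20 ± 0.07, adjusted p = 0.0286). Its call was lost without control replicate 2 (0.16), control replicate 3 (0.19), AICAR 24 h replicate 1 (0.18) or AICAR 24 h replicate 2 (0.17), with median centring (0.22) and with the compared groups alone (0.20).

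The other ER folding genes were called at none of the 6 times by limma, as were Hspa8 and Hsp90aa1, 11 genes in all, of which 1 (Creld2, at 24 h) had an unadjusted p under 0.05. For the lectin chaperones, the 95% intervals over the 6 times ran from -0.26 to 0.29 for calreticulin (Calr) and from -0.22 to 0.28 for calnexin (Canx). They ran from -0.28 to 0.25 for Hsp90b1 (GRP94) and from -0.34 to 0.39 for Pdia6, a disulfide isomerase. They ran from -0.27 to 0.45 for Dnajc3 (p58IPK, an ER J-domain protein), from -0.33 to 0.23 for Dnajb11 (ERdj3, a BiP partner) and from -0.30 to 0.24 for Creld2, an ER stress-inducible protein. The 24 h arrays of Dnajb11 and Creld2 were all below the controls (-0.16 each). Alternatives called Creld2 lower at 24 h in 4 cases, 1 of them without AICAR 1 h replicate 3 (-0.16), and Dnajb11 in 2 cases. Dnajc3 was called higher at 12 h and 24 h with the replicate block (0.19 each) and lower at 4 h with array weights (-0.14), and Pdia6 lower at 24 h by the mean of its probe sets (-0.25). Pdia3, the isomerase ERp57, is represented by a single dim probe set with a control mean of 5.82, and its intervals were wide, -0.52 to 0.37.

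Of the 5 genes of ER-associated degradation, 4 were called higher at 24 h (all genes: 25.8%) and 0 lower (14.6%), with a median difference of 0.45. Whether this differs from the folding factors was not tested, and the roles were assigned after the data were seen. Dnajb9 was placed with degradation, while Dnajc3 and Dnajb11 were placed with the folding factors. Dnajb9 (ERdj4), a BiP co-chaperone that hands clients to degradation, had the largest difference among the 30 genes over the 6 times. It read 8.11, 8.18 and 7.86 on the controls, 8.08, 7.62 and 7.61 at 1 h, 8.15, 8.35 and 8.34 at 2 h, and 8.52, 8.53 and 8.45 at 4 h. It read 8.17 and 8.30 at 8 h, 8.22, 8.30 and 8.20 at 12 h and 8.91, 9.03 and 8.97 at 24 h. The arrays at 4, 12 and 24 h were all above the controls, and those at 1, 2 and 8 h overlapped them. The 1 h difference was -0.28, not called by limma, but it was called lower without AICAR 1 h replicate 1 (-0.43). Dnajb9 rose by 0.45 ± 0.11 (SE; adjusted p = 0.0107) at 4 h, a call lost without control replicate 3 (0.35), and by 0.92 ± 0.11 (1.89-fold, adjusted p = 2.05e-06) at 24 h. The rise from 12 h to 24 h was 0.73 ± 0.11 (adjusted p = 0.000109).

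Edem1, a lectin that delivers misfolded glycoproteins to degradation, was called higher at 12 h and 24 h. It read 8.73, 8.75 and 8.66 at 0 h, 8.82, 8.72 and 8.67 at 1 h, 8.82, 8.83 and 8.70 at 2 h, and 8.77, 8.82 and 8.69 at 4 h. It read 8.98 and 8.90 at 8 h, 9.04, 9.16 and 9.02 at 12 h and 9.38, 9.32 and 9.14 at 24 h. Arrays from 8 h on were above every control array, but limma did not call the 8 h difference (0.23, adjusted p = 0.0856). The difference was 0.36 ± 0.07 (SE; adjusted p = 0.00135) at 12 h and 0.57 ± 0.07 (1.48-fold, adjusted p = 5.11e-06) at 24 h, and 0.31 ± 0.07 between 12 h and 4 h (adjusted p = 0.00309). The step from 12 h to 24 h, 0.21 ± 0.07, was not called (adjusted p = 0.0536). The second probe set of Edem1 gave 0.50, 0.58 and 0.77 at 8, 12 and 24 h.

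Syvn1 encodes HRD1, the ubiquitin ligase at the centre of ER degradation, and Sel1l its membrane adaptor. Syvn1 went from 9.11 ± 0.11 (SD, n = 3) to 9.55 ± 0.03 at 24 h (0.45 ± 0.09 SE, adjusted p = 0.000603), while its second probe set, which stands for the gene when probe sets marked as shared between transcripts are left out, gave 0.21, not called. Sel1l went from 8.70 ± 0.07 to 8.99 ± 0.03 (0.29 ± 0.08, adjusted p = 0.00796; 0.54 by the mean of its probe sets). Herpud1, a membrane scaffold of the same ligase complex, changed early and in both directions. It was 8.61 ± 0.09 on the controls and 9.02 ± 0.14 at 4 h, then 8.37 ± 0.14 at 12 h and 8.78 ± 0.09 at 24 h. It was called higher at 4 h (0.40 ± 0.10, adjusted p = 0.0128), with a second probe set at 0.46. That call was lost without control replicate 3 (0.35), without AICAR 4 h replicate 2 (0.34) and without the 2 arrays with the highest medians (0.34). Herpud1 then fell by 0.65 ± 0.10 between 4 h and 12 h (adjusted p = 0.000108) and rose by 0.40 ± 0.10 between 12 h and 24 h (adjusted p = 0.0076).

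Xbp1 encodes the transcription factor of the IRE1 branch, and these values are of total Xbp1 RNA, which does not show its splicing. It read 10.10, 9.97 and 10.07 on the controls, 10.41, 10.17 and 10.05 at 1 h, 9.86, 9.92 and 9.92 at 2 h, and 9.65, 10.03 and 10.01 at 4 h. It read 10.46 and 10.41 at 8 h, 10.45, 10.43 and 10.50 at 12 h and 10.17, 9.95 and 10.05 at 24 h. The 8 h and 12 h arrays lay above the controls, the 2 h arrays below, and the rest overlapped them. Xbp1 rose by 0.41 ± 0.10 (SE; 1.33-fold, adjusted p = 0.005) at 12 h, by 0.56 ± 0.10 between 4 h and 12 h (adjusted p = 0.000344), and changed by -0.41 ± 0.10 between 12 h and 24 h (adjusted p = 0.00678).

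The 8 h difference of Xbp1 was 0.39 ± 0.11 (SE; adjusted p = 0.0322). It was not called without control replicate 2 (0.35), control replicate 3 (0.40), AICAR 8 h replicate 1 (0.37) or AICAR 8 h replicate 2 (0.41), nor by averaging its probe sets (0.31) or leaving out those marked as shared between transcripts (0.31). Sec24d, a cargo-binding subunit of the COPII coat that carries proteins out of the ER, was also called at 8 h and 12 h. All its arrays at 2 h and 4 h were above the controls too, but limma called neither difference (0.13 and 0.23). Some alternatives called the 4 h difference, among them quantile normalization (0.22). Sec24d was 9.56 ± 0.02 (SD, n = 3) at 0 h, 9.79 ± 0.04 at 4 h, 9.87 ± 0.12 (n = 2) at 8 h, 9.83 ± 0.05 at 12 h and 9.65 ± 0.13 at 24 h. The called differences were 0.31 ± 0.09 at 8 h (adjusted p = 0.0285) and 0.26 ± 0.08 at 12 h (adjusted p = 0.0182). The 8 h call was lost without any of the control replicates (0.30 without replicate 1, 0.31 without replicate 2 and 0.31 without replicate 3) and without AICAR 8 h replicate 1 (0.22). The 12 h call was lost without control replicate 1 (0.25) and without AICAR 12 h replicate 2 (0.24). Both calls were lost with median centring (0.32 and 0.27), and the 8 h call with the compared groups alone (0.31).

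The steps between later times were read against their own background. Between 4 h and 12 h, 3 of the 30 genes rose (Hspb1, Edem1 and Xbp1) and 2 fell (Bag3 and Herpud1), where 18.3% of all genes rose and 9.22% fell. Between 12 h and 24 h, 2 rose (Dnajb9 and Herpud1) and 7 fell (Hspa1b, Hsph1, Hspa4, Hspa9, Sdf2l1, Manf and Xbp1), where 12.6% of all genes rose and 7.3% fell. The step of Manf, -0.28 ± 0.09 (SE; adjusted p = 0.0267), was not called without AICAR 12 h replicate 2 (-0.28) or 3 (-0.23), nor without AICAR 24 h replicate 1 (-0.27) or 3 (-0.26). The groups compared in these steps share arrays with the comparisons against 0 h.

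By class, the cytosolic and ER genes had medians near that of all genes tested at 24 h, and the 2 mitochondrial genes had a lower one. The median difference at 24 h was 0.02 over the 8 cytosolic genes, 0.01 over the 20 ER genes, -0.33 over the 2 mitochondrial genes and 0.01 over all genes tested. At 8 h the class medians were 0.11, 0.04 and -0.03, beside 0.01 over all genes tested. On each 8 h array 7 of 8 cytosolic genes were above their control mean, as were 6692 and 7591 of all 12944 genes. At 12 h the class medians were 0.07, 0.05 and -0.08, beside 0.00. Taken array by array, the ER median at 24 h was 0.01, 0.00 and 0.00, with 9 or 10 of 20 genes above their control mean on each array. The called members at 24 h were 5 of 8 cytosolic, 2 of 2 mitochondrial and 8 of 20 ER genes, 50% of the 30, beside 40.4% of all genes called in either direction. Of the 8 ER genes with the ER stress element 1 was called at 24 h (Syvn1, higher), and of the 10 with a window but no such element 4 were higher and 1 was lower. The latter lack only an exact match in the bases searched, and Herpud1, with the second form, is among them. Of all 20 ER genes 5 were higher and 3 lower at 24 h, so genes called lower are missing here for want of a window.

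**Figure D3:**
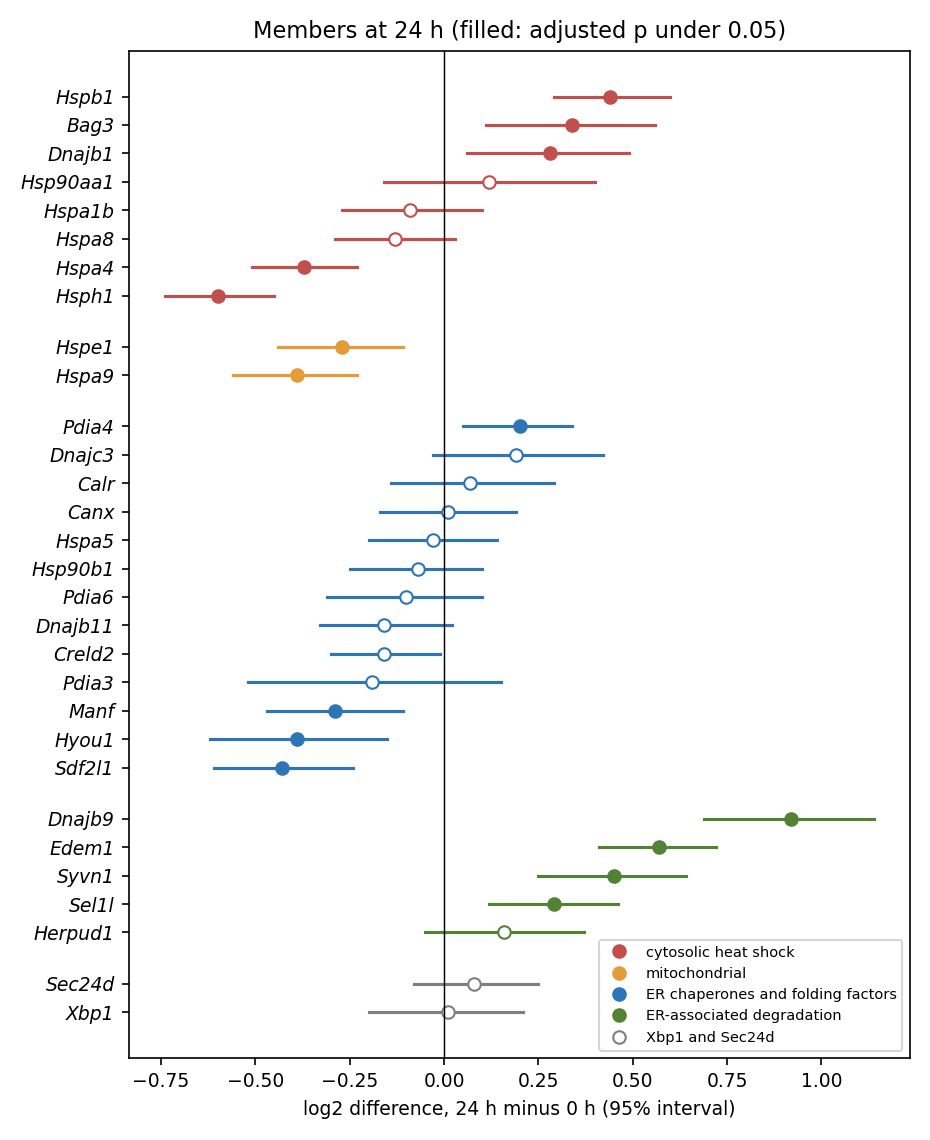
Log2 difference at 24 h against 0 h for each of the 30 genes with its 95% interval, grouped by role. Roles were assigned after the data were seen, and filled points have an adjusted p under 0.05. Of the ER-associated degradation genes 4 of 5 lie to the right with filled points, 3 folding factors and both mitochondrial genes lie to the left, and the cytosolic genes run from -0.60 (Hsph1) to 0.44 (Hspb1).

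**Figure D4:**
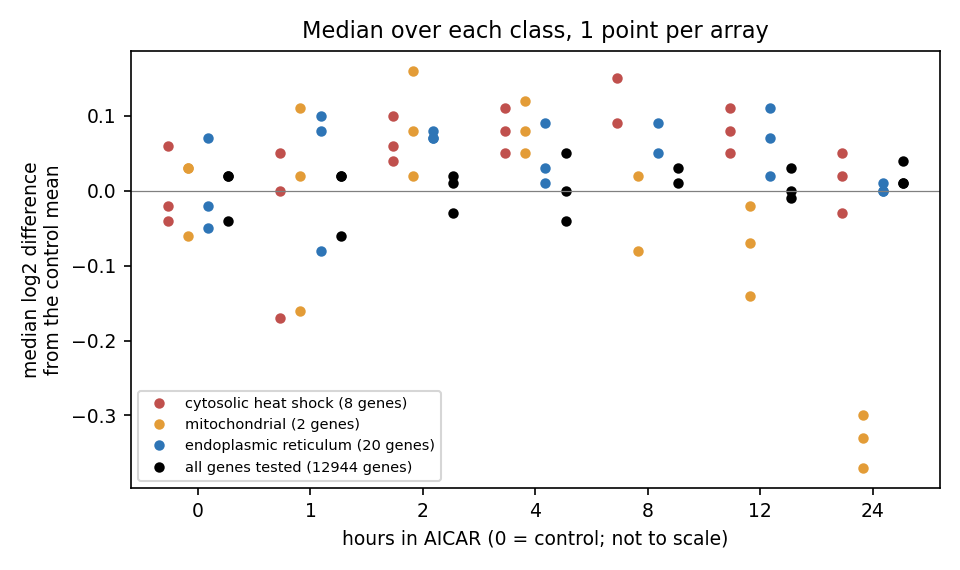
Median over the genes of a class of the log2 difference from the control mean, 1 point per array, by hours in AICAR; black points are the same median over all 12944 genes tested. The 2 mitochondrial genes at 24 h lie between -0.37 and -0.30, while the cytosolic and ER medians at that time lie between -0.03 and 0.05.

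RNA integrity can be read from the actin controls, whose 3′ signal exceeded the 5′ signal by 0.503 to 0.557 at 24 h, against 0.383 to 0.458 on the control arrays. The same difference for the Gapdh controls overlapped, 0.125 to 0.154 at 24 h and 0.0766 to 0.228 on the control arrays. The highest actin values were on AICAR 4 h replicate 2 (0.689) and AICAR 8 h replicate 2 (0.646). The mean of the macrophage markers was 4.59 on the controls and 4.75 at 24 h, within 4.49 to 4.81 over the arrays, with the control means of 5 of the 6, among them Ptprc (4.05), Lyz2 (3.86) and Adgre1 (4.83), under the background percentile. Of the 3 macrophage markers that passed the filter 1 was called higher at 24 h, Cd68, by 1.08 (control mean 4.77, 24 h mean 5.85). The part of either in the 24 h results was not tested. In bulk RNA, fewer cells with a transcript and less of it per cell cannot be told apart.

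Probe sets of a gene gave different sizes in several cases. The 30 genes have 65 single-symbol probe sets, 19 genes have more than 1, and of the 64 that passed the filter 13 were higher and 15 lower at 24 h when each was tested on its own, a fit added after the data were seen. Of all 28703 probe sets in that fit, 19.3% were higher and 13.8% lower. The second probe set of Dnajb1 rose by 0.81 at 4 h (adjusted p = 0.000171), 0.87 at 8 h, 0.72 at 12 h and 0.91 at 24 h (adjusted p = 4.21e-06), while in this fit the one that stands for the gene was called at 0 of the 6 times (adjusted p = 0.05 at 24 h, when rounded). For Sel1l, another pair of probe sets rose by 0.73 and 0.89 at 12 h and by 0.97 and 1.15 at 24 h. A further pair, with control means of 5.74 and 4.87, gave 0.13 and 0.14 at 24 h. For Hspa4, the others were at -0.35 and -0.50 at 12 h, when the one that stands for the gene was at 0.00, and at -0.63 and -0.74 at 24 h. For Hspa8, 3 of its 4 probe sets gave -0.13, -0.17 and -0.23 at 24 h, not called. The other, with a control mean of 7.27, was at -0.99 at 12 h and -1.58 at 24 h (adjusted p = 2.91e-05). In Pdia6 a second probe set, with a control mean of 5.38, was at -0.39 at 24 h, and in Dnajc3 1 of 5 rose by 0.54. Which transcripts these probe sets read was not tested.

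**Figure D5:**
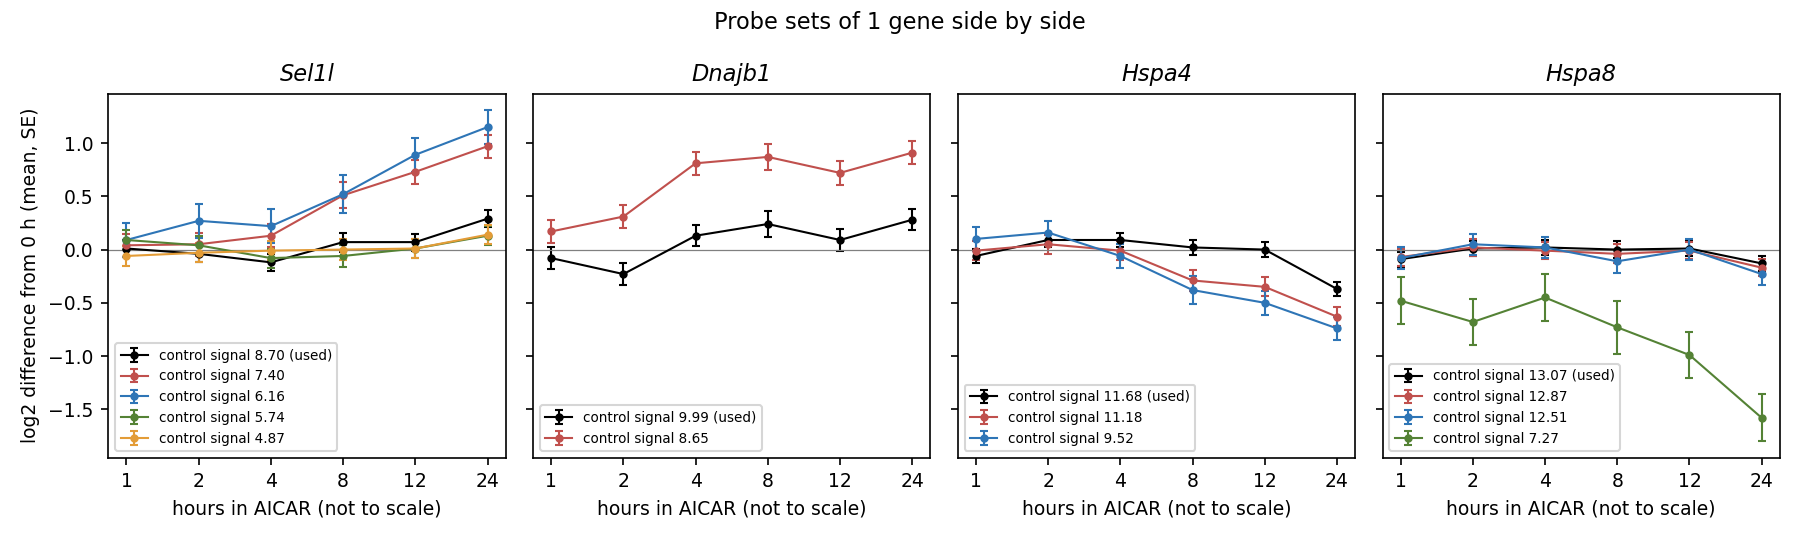
Log2 difference from 0 h (mean, with SE) of each single-symbol probe set of Sel1l, Dnajb1, Hspa4 and Hspa8 by hours in AICAR; the key gives each probe set's mean log2 signal on the control arrays and marks the one that stands for the gene. In every panel at least 1 other probe set moves further than the one used, up to -1.58 for the dim probe set of Hspa8.

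Other genes of the same pathways were read from lists kept apart from the 34. Their counts at 24 h stand beside 25.8% of all genes called higher and 14.6% called lower. Of 24 cytosolic co-chaperones 7 were higher and 5 lower at 24 h. Hspa4l, an HSP110 relative, rose by 0.98 ± 0.10 (SE; 0.55 by the mean of its probe sets), Hspb8, the partner of Bag3, by 0.56 and the J-domain gene Dnajb4 by 0.47. Dnajb6, another J-domain gene, was lower by -1.06 (-0.27 by the mean of its probe sets). Of 13 genes of the CCT chaperonin and its partner prefoldin, 0 were higher by limma and 3 were lower, the prefoldin subunit Pfdn4 (-0.36) and the chaperonin subunits Cct3 and Cct8 (-0.20 each). The calls of Cct3 and Cct8 were both lost without control replicate 1 (-0.18 and -0.20), control replicate 3 (-0.20 and -0.21), AICAR 24 h replicate 2 (-0.20 and -0.23) or AICAR 24 h replicate 3 (-0.20 each), and that of Cct8 was lost in 21 of 33 alternatives. Of 11 mitochondrial chaperones and proteases 2 were higher and 4 lower, among them the proteases Htra2 (-1.47 ± 0.08), Clpp (-0.74) and Lonp1 (-0.41).

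In the ER, 5 of 10 sensors and transducers of the unfolded protein response were higher and 2 lower at 24 h, beside 25.8% and 14.6% of all genes. One of the 5, Mbtps2, a protease that activates ATF6, was at 0.79 but at -0.29 by the mean of its probe sets. Eif2ak3, which encodes the sensor PERK, rose by 0.95 ± 0.11 (SE; 0.30 by the mean of its probe sets), and Atf6b, a relative of Atf6, was lower by -0.62 ± 0.15. Of 7 outputs of the PERK branch 1 was higher and 2 were lower. The stress transcription factor gene Atf3 rose by 1.51 ± 0.14, while Ddit3, which encodes CHOP, changed by -0.93 ± 0.16 and Chac1, a glutathione-degrading enzyme, by -1.47 ± 0.25. Ddit3 was called lower at each of the 6 times, from -0.81 ± 0.16 at 1 h (adjusted p = 0.0179) on, with -1.18 at 4 h and -1.17 at 12 h (adjusted p = 3.48e-05). Of 14 other genes of ER-associated degradation 7 were higher and 2 lower, with a median of 0.19. Edem2 and Edem3, relatives of Edem1, rose by 0.61 ± 0.08 and 0.63 ± 0.08, and the lectin gene Erlec1 by 0.81 ± 0.11. These gene lists were assembled with earlier results of these data known.

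Of 19 other ER folding enzymes 5 were higher and 3 lower at 24 h, shares near the 25.8% and 14.6% of all genes. Ero1b rose by 0.64 ± 0.08 (SE), or 0.23 by the mean of its probe sets. Txndc5, a thioredoxin-domain isomerase, was at -0.58 ± 0.07. Fkbp11, a prolyl isomerase, was at -1.15, but at -0.13, not called, without probe sets marked as shared between transcripts. Of 18 genes of the translocon, signal peptidase and oligosaccharyl transferase 0 were higher by limma and 5 were lower, led by the translocon-associated genes Ssr4 (-0.40) and Ssr1 (-0.38). Of 19 genes of the COPII coat and ER retrieval 7 were higher and 3 lower. The KDEL receptor genes Kdelr3 and Kdelr1, which return chaperones to the ER, rose by 0.72 ± 0.08 and 0.62 ± 0.07. Lman1, a cargo receptor for glycoproteins, was lower by -1.11 ± 0.13.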

How the data were processed

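Biotin-labelled cRNA from total RNA was hybridised to Affymetrix MG-430 PM strips, per the labels' protocols. The authors deposited a table of 45141 probe sets by 20 arrays, read here as log2 signal because its highest value is 13.5; the sources used here do not give its background correction, summary method or normalization. The deposited log2 values were used unchanged.

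Of the probe sets, 28898 carry a single symbol, 551 carry several and 15692 are not in the annotation given. Symbols were updated by gene identifier with the GRCm38.p6 gene table. The probe set with the highest mean stood for a gene, and a gene was tested if its mean in at least 1 group exceeded 4.81, the 40th percentile of the whole table. One limma 3.58.1 fit (R 4.3.3, lmFit and eBayes, 7 group means, 13 residual degrees of freedom) gave two-sided p-values, Benjamini-Hochberg adjusted over 12944 genes within each comparison.

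The 34 genes, the other lists and the rule for naming genes were chosen with earlier results of these data known. By that rule, every gene of the 34 is named, array values are given for those called with a difference of at least 0.5 and, whatever their call, for Hspa5, Xbp1, Hspa8, Hsp90aa1 and Hspa1b, and other lists give up to 4 of the called genes with the largest differences at 12 or 24 h. Roles within the 34 were assigned after the data were seen. Alternatives were quantile normalization, median centring, other filters, other choices of probe set, variance models, array weights, the interquartile range of each array as a covariate, the replicate number as a block, a threshold of 0.01, fits of only the groups being compared, and fits without single arrays. Plots were made in matplotlib 3.10.9 under Python 3.11.15.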

Additional observations from a re-analysis of the deposited data

Results flagged for a closer look

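Each value here is the difference between 2 times in AICAR, so it tests whether a gene's effect against 0 h differed between them (limma, adjusted over all genes tested). Between 4 h and 12 h the effect on Hspb1 differed by 0.41, on Edem1 by 0.31 and on Xbp1 by 0.56, all higher at 12 h. That on Bag3 differed by -0.50 and that on Herpud1 by -0.65, both lower at 12 h.

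Between 12 h and 24 h the effect on Dnajb9 differed by 0.73 and that on Herpud1 by 0.40, both higher at 24 h. It was lower at 24 h for Hspa1b (-0.50), Hsph1 (-0.57), Hspa4 (-0.37), Hspa9 (-0.31), Sdf2l1 (-0.44), Manf (-0.28) and Xbp1 (-0.41).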

How the results depend on the processing

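Of 40 calls of a gene in a comparison, 26 passed the threshold in all 33 alternatives and 0 reversed. The number of the 30 genes called at 4 h was 3 as reported and 5 with quantile normalization, 5 with trended and robust variance, 5 with the interquartile range as a covariate, 13 with array weights and 1 at a threshold of 0.01. At 8 h it was 3 as reported, 6 with quantile normalization, 5 with array weights, 5 with the interquartile range, 6 with each probe set on its own and 1 at 0.01. At 12 h it was 5 as reported, 9 with the mean of all probe sets, 8 with array weights and 10 with each probe set on its own, and at 1 h it was 2 with array weights. Between 12 h and 4 h it was 5 as reported, 8 with the mean of all probe sets, 11 with array weights and 8 with each probe set on its own. Between 24 h and 12 h it was 9 as reported, 14 with quantile normalization and 15 with the interquartile range as a covariate. The share of all genes called was not counted for these alternatives, nor for the fits without single arrays. A change in these counts may thus not be particular to the 30 genes.

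Leaving out each array in turn gave 0 to 1 at 1 h (1 without AICAR 1 h replicate 1), 0 to 0 at 2 h, 1 to 4 at 4 h, 1 to 4 at 8 h, 4 to 7 at 12 h, 11 to 17 at 24 h, 5 to 7 between 12 h and 4 h, 8 to 11 between 24 h and 12 h, and 15 to 21 by the F test. With the replicate block all 40 calls passed, and the count between 24 h and 12 h was 15. Same-numbered arrays correlated by -0.455 to 0.79 in their deviations (median 0.325, 39 of 57 pairs over 0.1) and different-numbered arrays by a median of -0.166 (36 of 114 over 0.1). With 12 of 20 arrays closest to their own number and not every pair over 0.1, the numbers were not taken as pairing. The medians differ, however, and every replicate 3 array had a higher median signal (5.219 to 5.318) than every replicate 1 array (5.159 to 5.204). What the numbers share was not tested. The 8 h group has no replicate 3, so without the replicate block its differences from 0 h mix time with replicate number. Outside the 34 genes, 3 differences at 24 h reversed: Yme1l1 (0.49) was -0.02 and Mbtps2 (0.79) was -0.29 by the mean of their probe sets, and Sec62 (-0.28) was 0.13 without shared probe sets. The causes were not tested. Signal near background limits Pdia3, and the number of arrays, 2, with no replicate 3 among them, limits 8 h.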
